A study of Arabidopsis thaliana with 9 samples.

Results

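Class III peroxidases are heme enzymes that plant cells secrete into the cell wall, and the Arabidopsis thaliana genome encodes a family of 73 loci that are numbered PER1 to PER73 in genome order. The loci described here are 60 members of that family out of 33602 loci counted, taken by a list of their locus identifiers, in a rule that uses no measured level. Of the 60, 56 had at least 20 counts in total over the 9 libraries, and PER28, PER36, PER41 and PER67 did not. The other 13 loci of the family were not analysed here.

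Class III peroxidases use hydrogen peroxide to oxidise phenolic compounds, which joins monolignols into lignin and cross-links wall proteins and polysaccharides, so that walls stiffen. In another reaction cycle they make reactive oxygen species themselves, which can loosen walls and feed defence signalling. In roots, named members are known for the lignin of the endodermal Casparian strip, for root hair growth, for xylem lignin and for the balance of reactive oxygen species that sets where cells stop dividing and start to elongate.

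RNA was measured in root tips of 2 to 3 mm from seedlings grown for 5 days after germination, with 1 library for each of 9 groups. Wild-type Col-0 was grown at high phosphate (1 mM), at low phosphate (5 µM), and at low phosphate with iron left out and 100 µM of the iron chelator ferrozine added, which is called low iron here. The stop1 mutant and the almt1 mutant, both in the Col-0 background, were each grown on both phosphate levels and on low phosphate to which 1 mM L-malate was added. STOP1 is a zinc finger transcription factor needed for the expression of ALMT1, and ALMT1 is a channel that releases malate from root cells; the labels name no alleles. The title of the stop1 malate sample says +Pi, but its characteristics say malate was added to low phosphate, and the label was taken from the latter. Where 3 values follow each other for a genotype, they run from high phosphate to low phosphate to the treatment added to it, which is low iron in Col-0 and malate in the mutants.

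Counts assigned to genes ranged from 20619740 to 37189056 per library, with the fewest in Col-0 at low phosphate. Values are given as CPM, the counts scaled by library size after TMM, a scaling between libraries that rests on the bulk of genes. For a count of 0, a floor of 3 counts was used (0.0767 to 0.146 CPM, depending on the library), and such floors and the intervals given here cover counting error only. Reads that aligned to several places made up 44.9% of the Col-0 library at low phosphate and 4.19% to 14.3% of the other 8, and reads at overlapping genes made up 2.55% to 2.65% of the low-iron and both malate libraries and 0.956% to 1.69% of the rest. The part of these differences in the results was not tested. ALMT1 transcripts were at 0 to 2 counts in the 3 stop1 libraries and at 15.3 to 134 CPM in the other 6, almt1 included, and STOP1 transcripts were at 103 to 173 CPM in all 9 libraries, so transcript levels check neither mutant label at its own gene. Markers of the cell types a root tip holds were all detected, and 4 photosynthesis genes that mark shoot tissue summed to 67.6, 26.4 and 42.6 CPM at high phosphate in Col-0, stop1 and almt1 and to 7.09 to 16.3 CPM in the other 6 libraries. Their part in the phosphate results was not tested. In such bulk samples, fewer cells of a type and less RNA per cell cannot be told apart.

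The family as a whole made up 0.671% to 1.39% of the counts on genes. Its summed level was highest in the 3 high-phosphate libraries, at 13895 CPM in Col-0, 13780 CPM in almt1 and 11941 CPM in stop1. At low phosphate it was 10872 CPM in Col-0, 10172 CPM in almt1 and 10003 CPM in stop1. The low-iron library held 8796 CPM, the almt1 malate library 8489 CPM and the stop1 malate library 6174 CPM. In each genotype the sum was therefore lower at low than at high phosphate and lower again with the added treatment, and the sum of the shoot tissue markers was also lower at low than at high phosphate in each genotype.

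A few members carried most of this sum. The 10 members with the most counts in each library held 60.3% of the family's level in Col-0 at low phosphate and 77.5% in Col-0 at high phosphate, with the other libraries in between. Per kilobase of exon, PER69 had the highest mean level over the 9 libraries at 774 CPM per kb, followed by PER45 at 680, PER57 at 668, PER21 at 628, PER42 at 449 and PER32 at 432 CPM per kb. PER3, PER27, PER7 and PER44 completed the first 10, at 218 to 393 CPM per kb. PER69 is reported to act in root hair growth, PER57 in root elongation and PER3 in the Casparian strip. At the other end, PER41 had no count in any library and PER28 and PER67 had 1 count each. PER1 had 25 counts over all libraries. Its coding sequence is identical to that of its neighbour PER2 over 978 bases, so reads within it cannot be assigned to either gene. Both levels are therefore uncertain. Near-identity is unusual in the family: the median identity of coding sequences over 1770 pairs of members was 51.7%, and 12 pairs reached 75%.

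**Figure D1:**
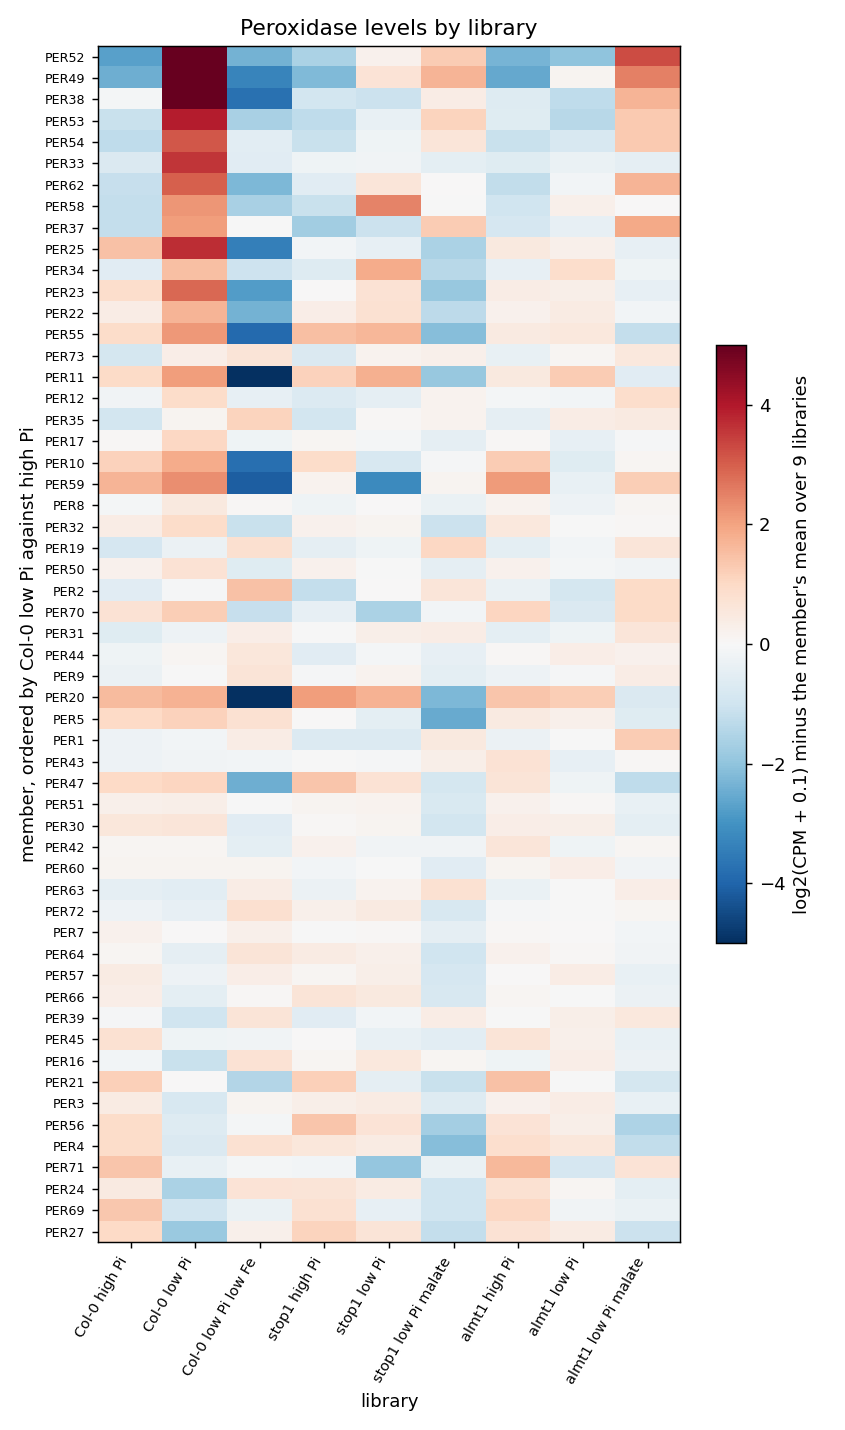
Level of each of the 56 members with at least 20 counts in each of the 9 libraries, drawn as log2(CPM + 0.1) minus the member's mean over the libraries (red above, blue below; 1 library per column). The Col-0 library at low phosphate is the reddest column for the members at the top, led by PER52, PER49 and PER38, and the low-iron library is the bluest column for most of the same members.

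The heat map of member levels orders the family by its response in Col-0. The top rows are high in 1 library, Col-0 at low phosphate, and their colours in the stop1 and almt1 low-phosphate columns are paler. The bottom rows, led by PER27, PER69 and PER24, are low in that library.

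Low against high phosphate in Col-0 changed members in both directions, with the largest rises in PER49, PER52, PER38 and PER53 and the largest falls in PER27 and PER69. With edgeR's quasi-likelihood test, calling genes at a Benjamini-Hochberg adjusted p under 0.05, 25 of the 55 members tested passed, or 45.5%, against 21.8% of all genes tested. Of these, 14 rose, where 12% of all genes did, and 11 fell, where 9.79% of all genes did. The lone Col-0 libraries were assumed to vary as the stop1 and almt1 pairs do, here and at low iron. The same holds for the tests of the Col-0 response minus the mutant response and of the mutants against Col-0. The p-values therefore rest on the spread between stop1 and almt1 libraries and measure no spread between Col-0 samples of a group. The median log2 fold change was 0.37 over the members and 0.07 over all genes tested. Between these libraries alone, members counted as apart when they differed by 2-fold or more with a counting interval that left out equality: 18 were higher at low phosphate (11.1% of all genes) and 8 lower (8.41% of all genes), together 46.4% of the 56, against 19.5% of all genes with 20 counts.

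PER49 (AT4G36430) rose the most among members counted in both libraries. Its level was 1.61 CPM at high phosphate, 412 CPM at low phosphate and 0.849 CPM at low iron in Col-0. In stop1 it was 1.93, 15.02 and 30.2 CPM, and in almt1 1.5, 10.05 and 53.2 CPM. Col-0 at low phosphate stood above each of the other 8 libraries. The fitted log2 fold change in Col-0 was 8.01 ± 0.67 (SE; adjusted p = 0.00665, edgeR's quasi-likelihood test).

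PER52 (AT5G05340), known to contribute to lignin of the stem, had no count in Col-0 at high phosphate and 49.0 CPM at low phosphate, so it was at least 467-fold higher. It stood at 0.0274 CPM at low iron, which is 1 count. In stop1 its level was 0.118 CPM at high phosphate, 0.662 CPM at low phosphate and 1.46 CPM with malate, and in almt1 0.0313, 0.0605 and 6.21 CPM. PER52 therefore lay near the floor in every library at high phosphate and was abundant in 1 of the 9. Its call in Col-0 (adjusted p = 0.0238, edgeR) did not hold without a filter on low counts, nor without the stop1 or the almt1 library at high phosphate.

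PER37 (AT4G08770) and PER38 (AT4G08780) are neighbours on chromosome 4 that lie head to head, 3706 bases apart, with coding sequences that are 93.8% identical. Overexpression of PER37 is known to make dwarfed plants. PER37 was at 31.3, 303 and 70.6 CPM in Col-0, at 21.3, 33.5 and 173 CPM in stop1, and at 39.4, 54.1 and 264 CPM in almt1. PER38 was at 1.12, 67.1 and 0 CPM in Col-0, at 0.590, 0.523 and 1.61 CPM in stop1, and at 0.750, 0.454 and 4.17 CPM in almt1. Both were highest in Col-0 at low phosphate, and in each mutant both were highest with malate. In Col-0 at low phosphate PER37 rose by 3.29 ± 0.18 (log2, SE; adjusted p = 0.0028) and PER38 by 5.91 ± 0.48 (adjusted p = 0.00423, edgeR's quasi-likelihood test). Reads shared by this near-identical pair may be split between them or dropped, and PER38 also overlaps another counted locus.

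The 250 bases before the annotated start of 5 members that rose together in Col-0 at low phosphate are shown so that members with a like rise can be compared letter by letter. Sequence, strand and positions are RefSeq's on the TAIR10.1 build, and capitals mark the W-box core TTGAC or its reverse complement, the motif that WRKY transcription factors bind. The windows are chr4:5600399-5600648 on the minus strand for PER37, chr4:5603855-5604104 on the plus strand for PER38, chr4:17206034-17206283 on the minus strand for PER49, chr5:1580876-1581125 on the minus strand for PER52 and chr5:15849142-15849391 on the minus strand for PER62, and no exon of another gene falls in them.
PER37: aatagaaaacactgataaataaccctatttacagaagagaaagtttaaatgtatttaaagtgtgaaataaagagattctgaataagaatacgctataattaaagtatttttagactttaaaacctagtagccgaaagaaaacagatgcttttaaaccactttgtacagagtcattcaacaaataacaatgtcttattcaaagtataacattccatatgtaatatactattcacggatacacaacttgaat
PER38: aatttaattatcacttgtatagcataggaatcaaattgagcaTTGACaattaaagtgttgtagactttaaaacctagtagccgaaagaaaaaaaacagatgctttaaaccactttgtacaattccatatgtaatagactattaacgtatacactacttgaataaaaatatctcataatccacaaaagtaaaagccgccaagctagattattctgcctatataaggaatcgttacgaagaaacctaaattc
PER49: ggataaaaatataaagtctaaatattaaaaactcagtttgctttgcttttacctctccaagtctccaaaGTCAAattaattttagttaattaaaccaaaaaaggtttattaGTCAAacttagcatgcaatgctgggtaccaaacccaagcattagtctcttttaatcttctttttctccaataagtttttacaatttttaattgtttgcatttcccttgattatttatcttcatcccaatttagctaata
PER52: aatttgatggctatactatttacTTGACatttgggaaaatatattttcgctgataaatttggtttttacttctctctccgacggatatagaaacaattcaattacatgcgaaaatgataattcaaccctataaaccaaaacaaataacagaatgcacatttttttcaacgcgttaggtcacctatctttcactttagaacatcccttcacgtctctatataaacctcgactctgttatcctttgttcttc
PER62: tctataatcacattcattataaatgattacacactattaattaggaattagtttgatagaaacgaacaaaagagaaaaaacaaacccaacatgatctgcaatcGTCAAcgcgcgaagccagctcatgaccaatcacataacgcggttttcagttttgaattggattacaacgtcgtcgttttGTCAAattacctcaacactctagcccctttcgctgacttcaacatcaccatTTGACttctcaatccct

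PER62 holds 3 W-box cores, PER49 holds 2, PER38 and PER52 hold 1 each, and PER37 holds none. The longest run of bases that the windows of PER37 and PER38 share is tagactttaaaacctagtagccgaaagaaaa, 31 bases that begin 140 bases before the start of PER37 and 190 bases before that of PER38. Over the 60 members, 41.7% of windows held the core on either strand, against 45.0% of 26711 protein-coding genes with a window of the same length. The phosphate starvation motif P1BS, read as GNATATNC on either strand, was in 3.3% of member windows (PER7 and PER67) and in 5.4% of all windows, and the G-box CACGTG was in 0 of the 60 and in 6.6% of all. A match describes these letters only.

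**Figure D2:**
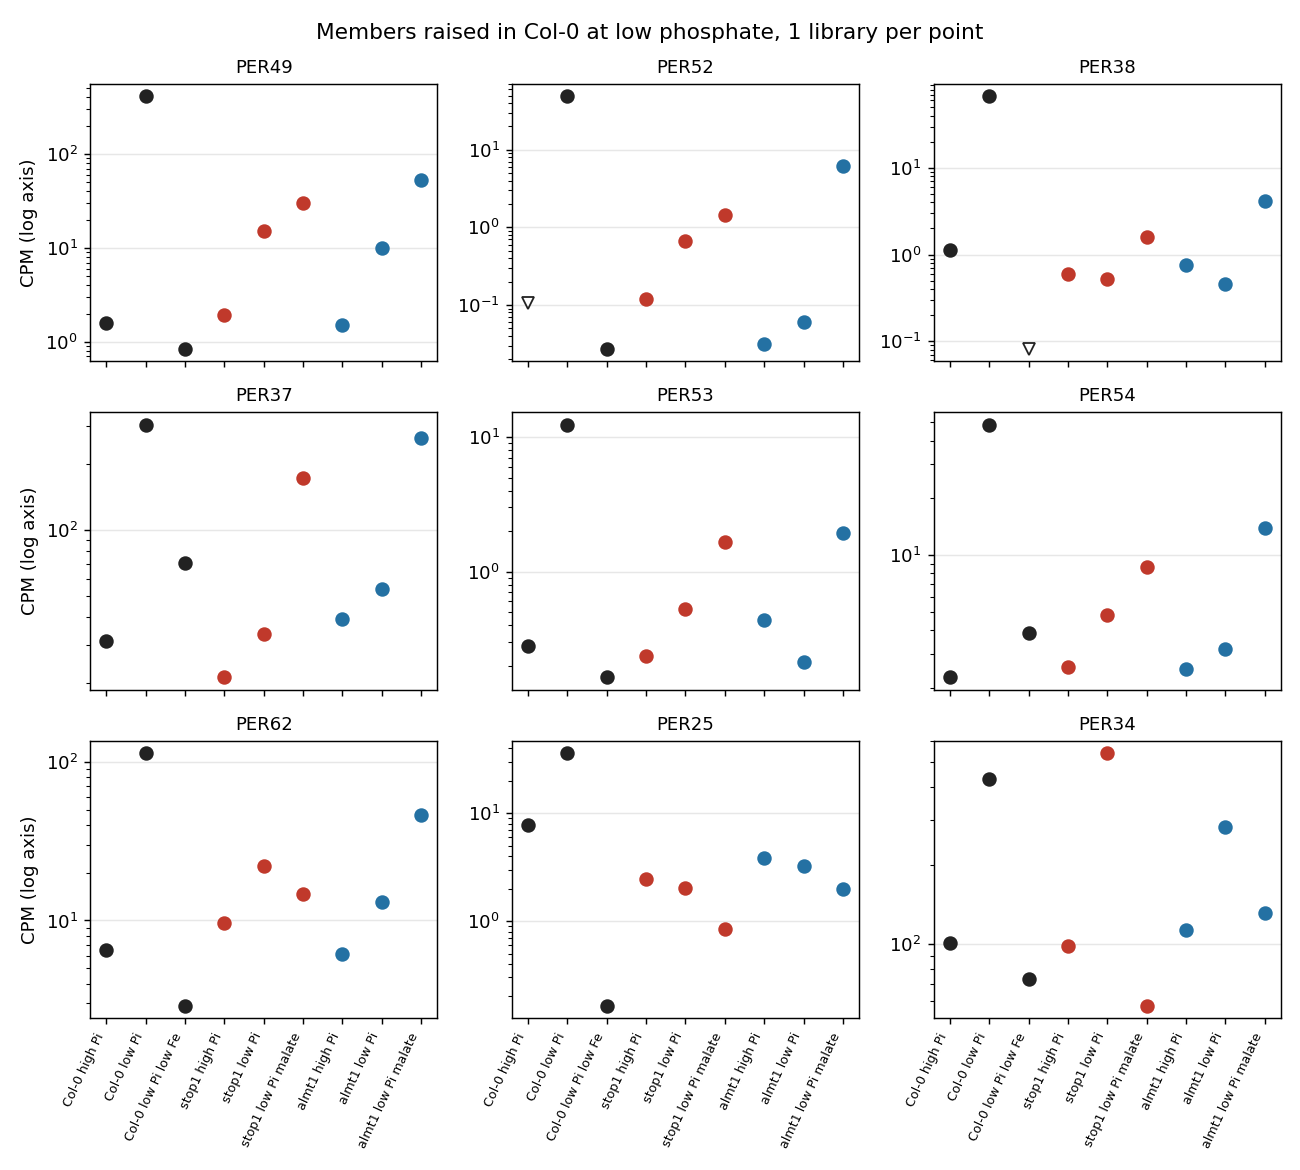
CPM (log axis) of 9 members that were higher in Col-0 at low than at high phosphate, 1 library per point; black is Col-0, red stop1 and blue almt1, and an open triangle marks a count of 0 drawn at the floor of 3 counts. Col-0 at low phosphate is the highest of the 9 libraries in every panel except that of PER34, where stop1 at low phosphate is highest at 540 CPM.

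The plot of these 9 members by library shows how far Col-0 at low phosphate stands from the rest. PER53 (also called PA2) and PER54 are tandem neighbours with 80.8% identical coding sequences. PER53 was at 0.280, 12.3 and 0.164 CPM in Col-0, and at 0.212 to 1.94 CPM in the 6 mutant libraries. PER54 was at 2.27, 48.6 and 3.89 CPM in Col-0, and at 2.50 to 13.8 CPM in the mutants. For both, Col-0 at low phosphate did not overlap the others, and they rose in Col-0 by 5.46 ± 0.63 and 4.43 ± 0.48 on the log2 scale (adjusted p = 0.0073 and 0.00786, edgeR).

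PER33 and PER34, the tandem pair PRXCA and PRXCB that makes the pathogen-triggered oxidative burst and is needed for root cell elongation, did not follow the same order of libraries. PER33 was at 4.58 CPM in Col-0 at low phosphate and at 0.140 to 0.244 CPM in the other 8 libraries. PER34 was at 101, 430 and 73.5 CPM in Col-0, at 97.7, 540 and 57.8 CPM in stop1, and at 113, 280 and 131 CPM in almt1. PER34 was thus higher at low phosphate in all 3 genotypes, and PER33 in Col-0 (5.01 ± 0.57, adjusted p = 0.0071, edgeR). Their coding sequences are 90.4% identical, so part of a change in one could be counted on the other.

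Among members that fell in Col-0 at low phosphate, PER27 and PER69 fell the most. PER27 (AT3G01190), known from root hairs, was at 870, 119 and 518 CPM in Col-0, at 928, 683 and 190 CPM in stop1, and at 706, 573 and 203 CPM in almt1. PER69 (AT5G64100) was at 2416, 489 and 761 CPM in Col-0, at 1595, 722 and 473 CPM in stop1, and at 1960, 849 and 755 CPM in almt1. The lowest PER27 level was that of Col-0 at low phosphate, and the 3 high-phosphate levels of PER69 did not overlap those of the other 6 libraries. In Col-0, PER27 fell by 2.85 on the log2 scale (SE 0.23, adjusted p = 0.00387) and PER69 fell by 2.29 (SE 0.23, adjusted p = 0.00542, edgeR's quasi-likelihood test). PER24, PER71, PER4, PER56, PER3, PER21, PER16, PER45 and PER39 also fell, by 0.93 to 2.02 on the log2 scale.

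Of the 25 calls in Col-0, 11 held in every fit that left out 1 of the 7 other libraries: PER25, PER33, PER37, PER38, PER49, PER53 and PER54 upward and PER24, PER27, PER69 and PER71 downward. Without the stop1 library at high phosphate 13 members passed, and without the almt1 library at high phosphate 12.

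Low phosphate also moved members in each mutant, and PER49 and PER71 were among them. Between the stop1 libraries 5 members were higher (3.65% of all genes) and 6 lower (3.59% of all genes), 19.6% of the 56 against 7.23% of all genes. Between the almt1 libraries 4 were higher (2.99% of all genes) and 7 lower (3.91% of all genes), 19.6% against 6.91% of all genes. PER34, PER49, PER58 and PER62 were higher at low phosphate in each of the 3 genotypes. PER21, PER69 and PER71 were lower in each of the 3. These contrasts share no library. Over the 55 members counted in all 4 mutant libraries, the log2 ratios of stop1 and almt1 had a Pearson r of 0.82, with 47 of one sign in both, as a description of these libraries. Matching values over all genes are not given here, so whether such sharing between genotypes is particular to the family was not tested.

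PER62 (AT5G39580), which is reported to act in root hair growth at low temperature, was at 6.47, 113 and 2.90 CPM in Col-0. It was at 9.59, 21.9 and 14.7 CPM in stop1, and at 6.13, 13.2 and 46.1 CPM in almt1. The low-phosphate level was above the high-phosphate level by 17.5-fold in Col-0, 2.29-fold in stop1 and 2.15-fold in almt1. Its call in Col-0 (4.14 ± 0.97, adjusted p = 0.0415, edgeR) was lost with DESeq2 size factors, with no filter on low counts, and without any 1 of the low-iron library and the stop1 and almt1 libraries at high and low phosphate. PER58 was at 2.09 CPM or less in every library.

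PER71 (AT5G64120), reported to act in lignification and root elongation, was at 433, 131 and 156 CPM in Col-0, at 153, 44.2 and 133 CPM in stop1 and at 510, 92.8 and 271 CPM in almt1. It was lower at low than at high phosphate in all 3 genotypes and rose again with malate in both mutants. Treating the 3 genotypes as replicates, 5 of 53 members tested passed, 9.43% against 3.71% of all genes: PER34, PER35 and PER11 rose (1.81% of all genes did), and PER71 and PER21 fell (1.9% of all genes did). PER71 had a log2 fold change of -2.0 ± 0.20 (adjusted p = 0.0221) and PER34 one of 1.95 ± 0.26 (adjusted p = 0.0352, edgeR). None of these 5 calls held in all 6 fits that left out 1 library, and 0 members passed without either of the stop1 libraries, 3 without either of the almt1 libraries, and 22 and 20 without the Col-0 library at high and at low phosphate.

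In stop1 and almt1 taken as replicates of a mutant class, 9 of 55 members passed for low against high phosphate, 16.4% against 5.41% of all genes. PER49 and PER35 rose (2.3% of all genes did), and PER59, PER71, PER10, PER70, PER21, PER69 and PER47 fell (3.11% of all genes did). PER59 (AT5G19890) was at 49.8, 76.7 and 0.767 CPM in Col-0, at 17.1, 1.57 and 16.7 CPM in stop1, and at 66.1, 11.5 and 35.8 CPM in almt1. PER10 was at 228, 378 and 7.53 CPM in Col-0, at 194, 59.4 and 98.97 CPM in stop1, and at 249, 67.6 and 111 CPM in almt1. Against high phosphate, the low-phosphate level of both genes was thus above in Col-0 and below in both mutants, and the difference between the Col-0 and the mutant response of PER59 did not pass (adjusted p = 0.0869, edgeR). In the mutants PER59 fell by 2.79 on the log2 scale (SE 0.40, adjusted p = 0.0299) and PER10 fell by 1.80 (SE 0.12, adjusted p = 0.00465, edgeR). The count of 9 rested on single libraries: it was 0 without the stop1 or the almt1 library at high phosphate, 1 without the stop1 library and 4 without the almt1 library at low phosphate, and 25 without either malate library.

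**Figure D3:**
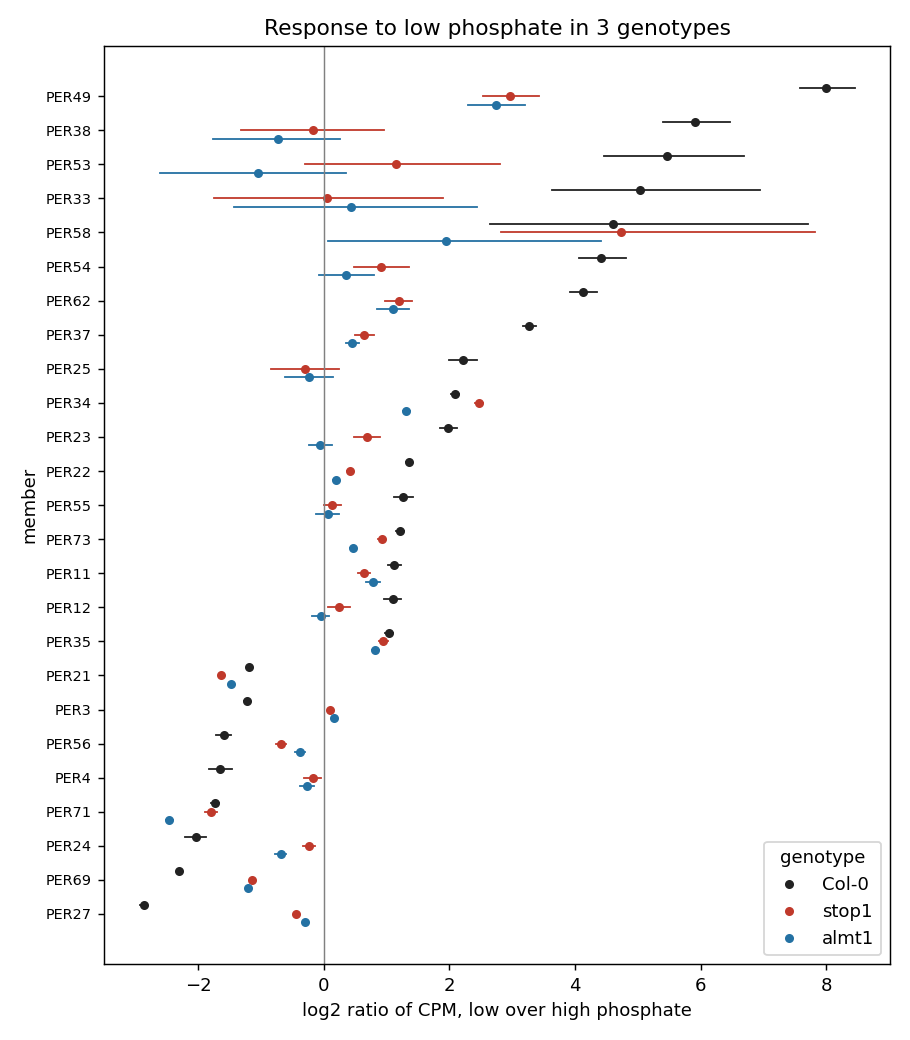
Log2 ratio of CPM at low over high phosphate in Col-0 (black), stop1 (red) and almt1 (blue) for the 25 members at least 2-fold apart in Col-0 and counted in both Col-0 libraries, with exact 95% counting intervals as horizontal lines (1 library per group). For most members of the upper part the black point lies to the right of both mutants. All 3 points lie on the same side of 0 for most members, with PER3, PER12, PER23, PER25, PER38 and PER53 as the exceptions.

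The test of the difference itself, the Col-0 response minus the mutant response, found 6 of 55 members, 10.9% against 1.25% of all genes, with 4 higher (0.688% of all genes) and 2 lower (0.561% of all genes). PER38, PER37, PER10 and PER25 responded higher in Col-0, by 6.36 ± 0.67, 2.74 ± 0.21, 2.54 ± 0.20 and 2.50 ± 0.34 on the log2 scale (adjusted p = 0.0226, 0.0199, 0.0199 and 0.0374, edgeR's quasi-likelihood test). PER27 and PER16 responded lower in Col-0, by -2.48 ± 0.27 and -1.46 ± 0.20 (adjusted p = 0.0223 and 0.037). The plot of responses in 3 genotypes shows the separation for PER38, PER37 and PER25. PER53, PER54 and PER49 missed the threshold, with adjusted p = 0.0528, 0.0538 and 0.0586. The count of 6 was 0 without any 1 of the 4 stop1 and almt1 libraries at high or low phosphate, 13 without the low-iron library and 30 without either malate library.

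PER25 (AT2G41480), which takes part in lignification of the stem, was at 7.72, 36.0 and 0.164 CPM in Col-0. In the 6 mutant libraries it was at 0.844 to 3.84 CPM, below Col-0 at either phosphate level. PER16 was at 175, 88.1 and 317 CPM in Col-0, at 203, 272 and 204 CPM in stop1, and at 163, 238 and 157 CPM in almt1. The Col-0 level at low phosphate was the lowest of the 9 for PER16.

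At high phosphate few members differed between mutant and wild type. No member passed the test of both mutants against Col-0 there, where 0.0% of all genes did; 1 member, PER25, had an unadjusted p under 0.05, and DESeq2 also called 0 members. Between single libraries, PER25, PER59, PER71 and PER70 were at least 2-fold lower in stop1 than in Col-0 (7.14% of members and 3.0% of all genes apart, with 1.91% of all genes lower), and 0 members were higher (1.08% of all genes). In almt1 PER25 was lower (0.718% of all genes) and PER43 higher (1.12% of all genes), which is 3.57% of members against 1.83% of all genes, with PER43 at 0.719 against 0.314 CPM. At low phosphate the same test found 15 of 55 members, 27.3% against 6.6% of all genes, with 11 lower (4.48% of all genes) and 4 higher (2.12% of all genes) in the mutants. The 11 were PER52, PER38, PER53, PER49, PER33, PER25, PER54, PER37, PER10, PER17 and PER50, and the 4 were PER27, PER24, PER16 and PER3. This comparison shares the Col-0 low-phosphate library with the Col-0 response, so the 2 sets of genes are not independent of each other.

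The calls for PER10, PER27, PER38, PER49, PER53 and PER54 held in each of 8 fits that left out 1 library. The count was 7 without the stop1 library and 6 without the almt1 library at low phosphate. Between single libraries at low phosphate, stop1 had 6 members higher (4.21% of all genes) and 17 lower (8.56% of all genes) than Col-0, against 12.8% of all genes apart. There almt1 had 6 higher (4.02% of all genes) and 19 lower (8.71% of all genes), against 12.7% of all genes apart.

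Low iron at low phosphate in Col-0 moved the largest share of the family among the 8 tests. Of 55 members, 34 passed, 61.8% against 30.6% of all genes, with 25 lower and 9 higher than in the low-phosphate library with iron. The share lower was 18.1% and the share higher 12.5% over all genes. Between the single libraries 26 members were lower (16.8% of all genes) and 9 higher (6.81% of all genes), 62.5% against 23.6% of all genes. The median log2 fold change was -0.45 over the members and -0.01 over all genes, and 28 of the 34 calls held in each of 7 fits that left out 1 library.

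PER20 (AT2G35380) showed the widest range among members counted in all 9 libraries. It was at 67.0 and 75.4 CPM in Col-0 at high and low phosphate and at 0.110 CPM, or 4 counts, at low iron. In stop1 it was at 94.2, 73.7 and 4.58 CPM and in almt1 at 57.6, 51.8 and 13.3 CPM. Its level was thus low in the 3 libraries with an added treatment and lay between 51.8 and 94.2 CPM in the other 6.

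PER11 (AT1G68850) and PER55 (AT5G14130) were also low in the 3 libraries with an added treatment. PER11 was at 42.8, 93.6 and 0.466 CPM in Col-0, at 49.2, 76.6 and 5.93 CPM in stop1, and at 31.3, 54.0 and 14.7 CPM in almt1. PER55 was at 20.1, 48.3 and 0.630 CPM, at 30.5, 33.5 and 2.33 CPM, and at 14.5, 15.2 and 4.62 CPM in Col-0, stop1 and almt1. In Col-0 at low iron PER20 fell by 9.39 (SE 1.34, adjusted p = 0.00993), PER11 fell by 7.65 (SE 1.01, adjusted p = 0.00836) and PER55 fell by 6.27 on the log2 scale (SE 0.97, adjusted p = 0.0119, edgeR). The 250 bases before the start of PER11 (chr1:25885262-25885511, minus strand) and of PER25 (chr2:17298726-17298975, minus strand), both nearly lost at low iron, are shown as a second set, with capitals as before.
PER11: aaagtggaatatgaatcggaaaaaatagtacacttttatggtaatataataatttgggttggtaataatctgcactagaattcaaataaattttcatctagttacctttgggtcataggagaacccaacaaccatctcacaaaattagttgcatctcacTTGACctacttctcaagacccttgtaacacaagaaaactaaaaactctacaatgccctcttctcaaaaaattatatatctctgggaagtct
PER25: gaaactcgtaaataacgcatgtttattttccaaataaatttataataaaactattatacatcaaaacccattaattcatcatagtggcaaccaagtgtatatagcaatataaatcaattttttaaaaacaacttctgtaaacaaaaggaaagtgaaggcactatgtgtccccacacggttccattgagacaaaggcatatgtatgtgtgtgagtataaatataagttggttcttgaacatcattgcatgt

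PER11 holds 1 W-box core and PER25 none, and neither window holds a P1BS motif. The low-phosphate library is the reference here and was the library compared before, so the members that rose most at low phosphate are not independent of those that fell at low iron, and their values are given side by side. PER38 had no count at low iron and was at least 817-fold lower, and PER52 had 1 count, a log2 ratio of -10.80 with a 95% counting interval from -16.11 to -8.32. PER49 fell by 8.93 (SE 0.70, adjusted p = 0.00295), PER25 fell by 7.75 (SE 0.40, adjusted p = 0.000723) and PER10 fell by 5.66 (SE 0.20, adjusted p = 0.000364, edgeR's quasi-likelihood test), all on the log2 scale. PER22 and PER23, a tandem pair with 90.6% identical coding sequences, were at 228 and 22.2 CPM at high phosphate, at 584 and 87.8 CPM at low phosphate and at 34.5 and 1.64 CPM at low iron.

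**Figure D4:**
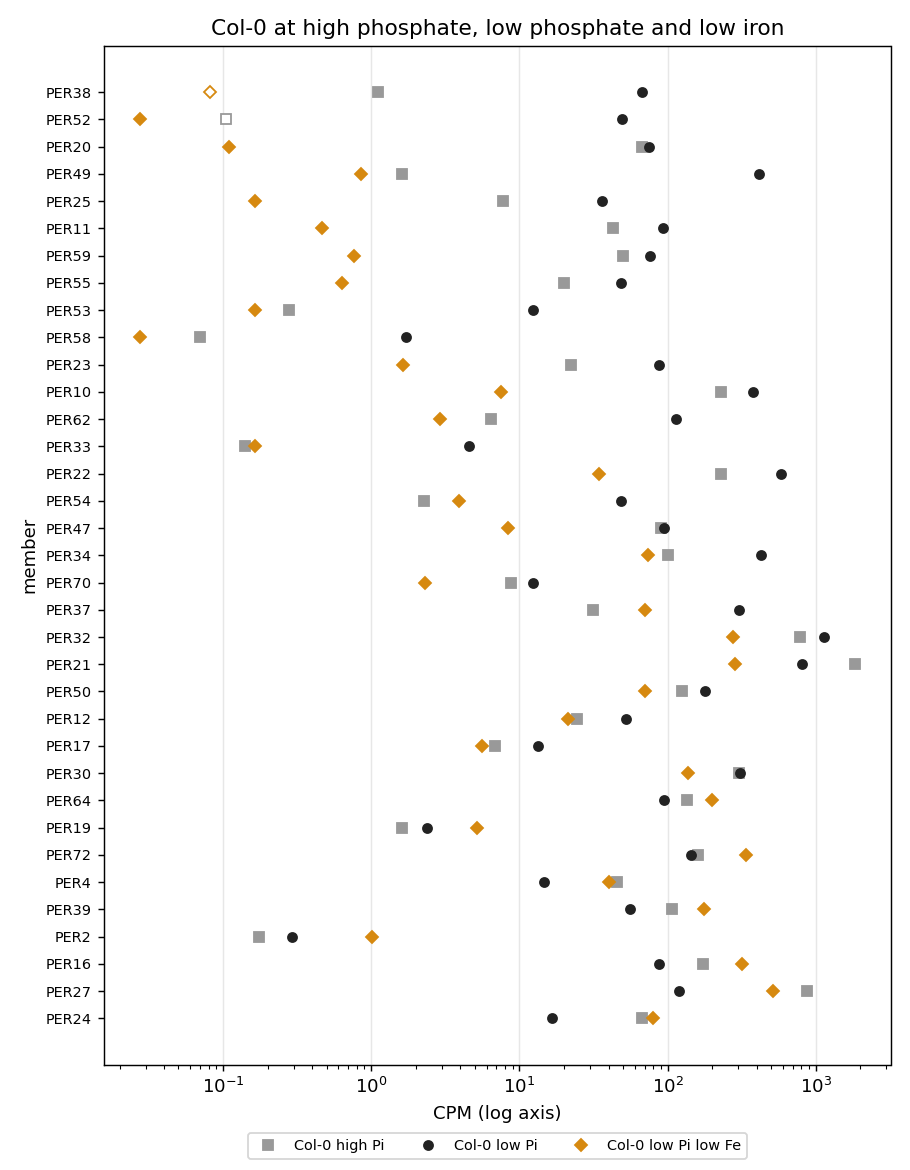
CPM (log axis) in the 3 Col-0 libraries for the 35 members at least 2-fold apart between low iron and iron at low phosphate, 1 library per point; grey squares are high phosphate, black circles low phosphate and orange diamonds low iron, and open symbols mark a count of 0 drawn at the floor of 3 counts. For the upper 26 members the diamond lies left of the circle, and for members such as PER20, PER11 and PER59 it also lies far left of the square.

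In the plot of the 3 Col-0 libraries the members differ in where low iron stands against high phosphate. With the high-phosphate library as the reference, a comparison chosen after seeing the data, 28 of 55 members passed, 19 lower (21.9% of all genes) and 9 higher (21.4% of all genes). Between the single libraries 18 members were lower (17.0% of all genes) and 6 higher (12.4% of all genes), 42.9% against 29.4% of all genes. Both comparisons share the low-iron library, and their values stand side by side: PER20 was 688-fold below the low-phosphate library and 612-fold below the high-phosphate library, and PER11 was 201-fold and 92.0-fold below. PER49 was 485-fold below the low-phosphate library, and its levels at low iron and at high phosphate were 0.849 and 1.61 CPM. PER37 was 4.29-fold below the low-phosphate library and 2.26-fold above the high-phosphate library.

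The 9 members that rose at low iron were PER24, PER27, PER16, PER39, PER4, PER19, PER35, PER3 and PER63. PER24 rose by 2.26 ± 0.30 (log2, SE; adjusted p = 0.00611) and PER27 by 2.1 ± 0.23 (adjusted p = 0.00337, edgeR). PER24 was at 67.6, 16.5 and 79.6 CPM in Col-0, so its low-iron level was close to that at high phosphate, and PER27 at 518 CPM lay between the other 2.

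Added malate moved the family in both directions in stop1 and almt1. In the test with both mutants as replicates, 30 of 55 members passed, 54.5% against 36.6% of all genes, with 19 lower (19.4% of all genes) and 11 higher (17.2% of all genes) than at low phosphate alone. The calls rested on the low-phosphate libraries: 1 member, PER37, passed without the stop1 library and 8 passed without the almt1 library. Between single libraries, 9 members were higher (6.07% of all genes) and 21 lower (13.5% of all genes) in stop1, 53.6% against 19.5% of all genes. In almt1 13 were higher (4.2% of all genes) and 8 lower (7.05% of all genes), 37.5% against 11.2% of all genes. PER37, PER38, PER49, PER52, PER53, PER59, PER70 and PER71 were higher in both mutants, PER4, PER11, PER20, PER27, PER34, PER47, PER55 and PER56 were lower in both, and 0 of the members apart in both mutants went opposite ways. Whether all genes share the direction of the malate change as often was not tested.

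PER37 rose by 2.33 ± 0.12 on the log2 scale (adjusted p = 0.00295, edgeR's quasi-likelihood test), to 173 CPM in stop1 and 264 CPM in almt1, beside 303 CPM in Col-0 at low phosphate without malate. PER38 rose by 2.49 ± 0.39 (adjusted p = 0.00962) and reached 1.61 and 4.17 CPM, beside 67.1 CPM in that Col-0 library. PER52 differed most between the mutants, at 2.20-fold in stop1 and 103-fold in almt1, and did not pass the test over both. PER4 fell by 2.18 (SE 0.20, adjusted p = 0.00542) and PER56 fell by 2.09 (SE 0.22, adjusted p = 0.00641). PER62 was 3.50-fold higher in almt1, and its level in stop1 was 14.7 CPM with malate and 21.9 CPM without.

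**Figure D5:**
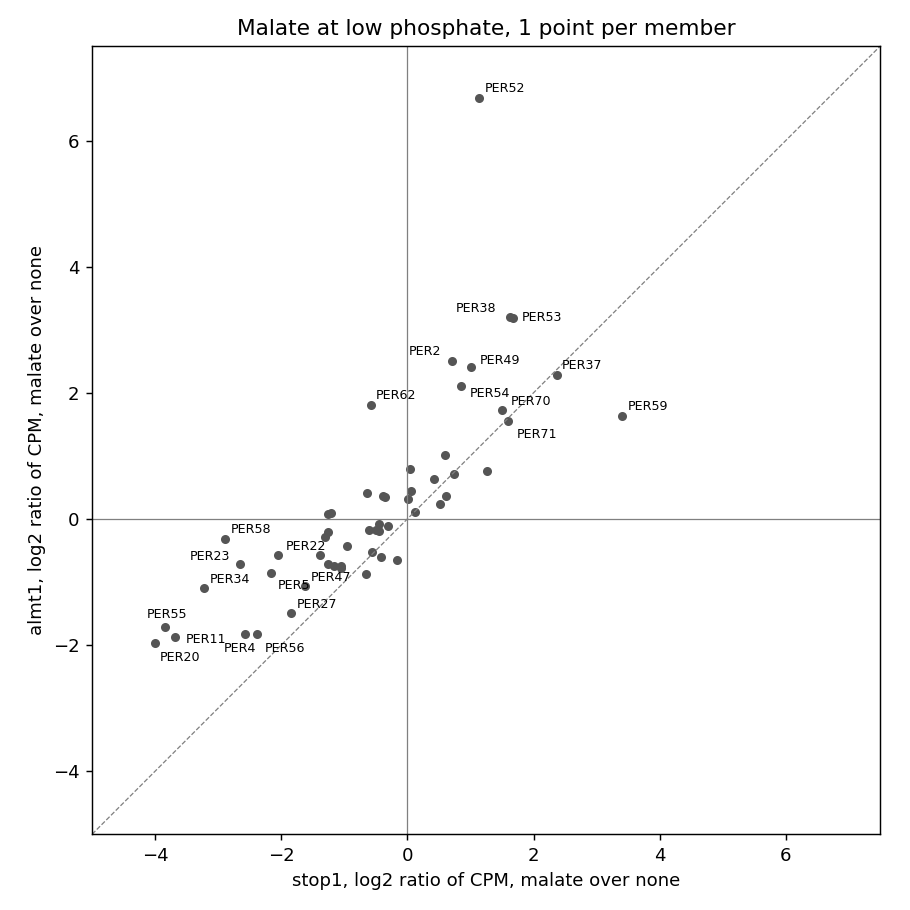
Log2 ratio of CPM with malate over none at low phosphate in stop1 (x axis) and almt1 (y axis), 1 point for each of 55 members counted in all 4 libraries; names mark members at 1.5 or more in either mutant, and the dashed line marks equal ratios. Points lie mostly in the lower left and upper right, with PER52 far above the line and PER59 below it.

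In the plot of malate ratios, 49 of the 55 members had the same sign in both mutants, with a Pearson r of 0.77 as a description of these libraries. The matching values over all genes are not given here. The malate libraries and the low-iron library also share a higher share of reads at overlapping genes than the other 6, and its part in these results was not tested.

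Read by role, the 5 peroxidases of the endodermal Casparian strip, PER3, PER9, PER39, PER64 and PER72, summed to 1070, 612 and 1307 CPM in Col-0. The sums were 1107, 1195 and 653 CPM in stop1, and 1026, 1116 and 903 CPM in almt1. Of the 5, PER3 and PER39 fell in Col-0 at low phosphate (9.79% of all genes did) and rose at low iron (12.5% of all genes), and PER3 fell with malate (19.4% of all genes). Between single libraries 3 of the 5 were higher at low iron, PER39, PER64 and PER72 (6.81% of all genes), and PER3, PER64 and PER72 were lower with malate in stop1 (13.5% of all genes), with 0 of the 5 apart in almt1. PER3 was at 628, 270 and 518 CPM in Col-0, and PER39 at 106, 55.5 and 177 CPM. PER9, PER64 and PER72 passed none of the 8 tests, and their ranges over the libraries were 34.6 to 75.5, 63.8 to 201 and 110 to 336 CPM.

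The 6 endodermis markers (CASP1 to CASP5 and SCR) summed to 391, 254 and 695 CPM in Col-0, to 503, 471 and 241 CPM in stop1 and to 431, 406 and 384 CPM in almt1. CASP5, a scaffold protein of the Casparian strip, fell by 2.86 on the log2 scale in Col-0 at low phosphate (SE 0.24, adjusted p = 0.00396, edgeR). Of the 6 markers, 3 rose at low iron (12.5% of all genes did). Within Col-0 the sum of the Casparian strip peroxidases and the sum of these markers were both lowest at low phosphate and highest at low iron, although PER9 and SCR were lowest and PER3 highest at high phosphate, and the part of cell composition in this was not tested.

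Of the 9 root hair peroxidases, 8 were tested. In Col-0 at low phosphate PER35, PER62 and PER73 rose (12% of all genes did) and PER27 and PER69 fell (9.79% of all genes did), so the list moved in both directions, and its median log2 fold change was 0.17. PER73 was at 135, 314 and 397 CPM in Col-0, at 151, 286 and 297 CPM in stop1, and at 193, 268 and 363 CPM in almt1. PER35 was at 97.8, 201 and 400 CPM in Col-0, at 98.4, 190 and 206 CPM in stop1 and at 133, 235 and 255 CPM in almt1. In each genotype both genes were lowest at high phosphate and highest with the added treatment. PER7, PER44 and PER60 were at least 2-fold apart in none of the 10 planned pairs, with ranges of 251 to 405, 237 to 517 and 101 to 188 CPM.

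The 5 root hair markers (COBL9, EXPA7, EXPA18, LRX1 and RHD6) summed to 407, 551 and 672 CPM in Col-0, 376 to 456 CPM in stop1 and 410 to 493 CPM in almt1. In Col-0 at low phosphate 2 of the 5 rose, RHD6 and LRX1 (12% of all genes did). RHD6, a regulator of root hair identity, rose by 1.01 on the log2 scale (SE 0.15, adjusted p = 0.0127, edgeR). LRX1, a wall protein of root hairs, rose from 24.8 to 196 CPM (adjusted p = 0.00684, edgeR). The other 3 did not pass, with EXPA7 at 141 and 122 CPM, EXPA18 at 176 and 134 CPM and COBL9 at 45.7 and 60.5 CPM at high and low phosphate, so most of the rise of the sum lay in LRX1. The part of root hair number in the levels of PER35 and PER73 was not tested.

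Of the 9 peroxidases linked to lignin of xylem and stem, PER25, PER52 and PER53 rose (12% of all genes did) and PER71 fell (9.79% of all genes did) in Col-0 at low phosphate. At low iron 5 fell (PER17, PER25, PER47, PER52 and PER53; 18.1% of all genes did) and 0 passed upward (12.5% of all genes did). Between the single libraries the same 5 were lower (16.8% of all genes), and PER72, from 144 to 336 CPM, and PER2, from 0.292 to 1.01 CPM, were higher (6.81% of all genes). The level of PER2 is uncertain because its coding sequence is that of PER1. PER47, expressed in differentiating vessels, was at 90.5, 94.9 and 8.33 CPM in Col-0, at 119, 74.6 and 24.2 CPM in stop1 and at 70.0, 38.5 and 18.4 CPM in almt1. PER66, also known from vessels, was at 67.3, 38.9 and 55.9 CPM in Col-0 and passed no test. It was at 84.2, 76.3 and 30.8 CPM in stop1, and at 58.0, 53.7 and 44.1 CPM in almt1. The 6 xylem markers (XCP1, XCP2, VND7 and the secondary wall cellulose synthases CESA4, CESA7 and CESA8) summed to 540, 232 and 310 CPM in Col-0, to 611, 497 and 188 CPM in stop1, and to 462, 377 and 271 CPM in almt1. Within Col-0, PER47 was lowest at low iron, while PER66 and the marker sum were lowest at low phosphate. In each mutant PER47, PER66 and the marker sum were lowest with malate. The part of cell composition in these levels was not tested.

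Of the 6 members linked to the oxidative burst and root elongation, PER33 rose (12% of all genes did) and PER4 and PER71 fell (9.79% of all genes did) in Col-0 at low phosphate. With malate PER4, PER5, PER34 and PER57 fell (19.4% of all genes did) and PER71 rose (17.2% of all genes did). PER57, one of the peroxidases repressed by UPB1, was at 1207, 761 and 1152 CPM in Col-0, at 994, 1138 and 510 CPM in stop1 and at 930, 1178 and 703 CPM in almt1. UPB1, the transcription factor that represses peroxidases at the transition to elongation, was at 66.9, 32.4 and 45.6 CPM in Col-0 and fell by 1.03 on the log2 scale at low phosphate (SE 0.19, adjusted p = 0.0184, edgeR). PER39, another gene UPB1 is known to repress, fell in that comparison too, and PER57 did not pass. In the mutants, UPB1 was at 68.2, 44.0 and 24.5 CPM in stop1 and at 59.1, 40.1 and 27.5 CPM in almt1. PER39 was at 75.7, 101 and 143 CPM in stop1 and at 111, 137 and 160 CPM in almt1. The part of UPB1 in these levels was not tested.

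The NADPH oxidases, which make the superoxide from which hydrogen peroxide for the peroxidases derives, were read beside the family. Of 10, 8 were tested, and RBOHE and RBOHF rose in Col-0 at low phosphate (12% of all genes did). RBOHE rose by 1.27 ± 0.24 and RBOHF by 0.89 ± 0.20 on the log2 scale (± SE, adjusted p = 0.0198 and 0.0279, edgeR). RBOHC, the root hair oxidase, rose at low iron, from 116 to 208 CPM (12.5% of all genes did). RBOHG fell with malate (19.4% of all genes did). RBOHD, the oxidase of the immune burst, was at 21.6, 80.3 and 18.3 CPM in Col-0 and did not pass (adjusted p = 0.127). Between single libraries at low phosphate, RBOHD and RBOHE were 3.71-fold and 2.39-fold higher in Col-0 (11.1% of all genes). RBOHD was 2.09-fold higher in stop1 (3.65% of all genes) and not apart in almt1. It was 4.37-fold lower at low iron (16.8% of all genes). With malate in stop1, RBOHD was 2.58-fold and RBOHG 3.44-fold lower (13.5% of all genes).

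Some members were apart in no planned pair. PER7, PER8, PER9, PER31, PER42, PER44, PER45, PER51, PER60 and PER63 were apart in 0 of the 10 planned pairs, although PER45 fell in Col-0 at low phosphate, from 1353 to 685 CPM. Of these, PER7, PER8 and PER60 also stayed within 2-fold over all 9 libraries, at 1.61, 1.78 and 1.87 from lowest to highest. The others ranged over 2.11-fold (PER42) to 2.5-fold (PER63). PER42, also called PRXR1, ranged from 573 to 1211 CPM. PER50 and PER51, tandem copies with 92.4% identical coding sequences, ranged from 70.8 to 180 and from 37.1 to 78.8 CPM. PER12, PER19, PER30, PER32 and PER70 were each apart in at least 1 pair, and PER32 was at 781, 1142 and 278 CPM in Col-0. Reads of the non-stranded libraries cannot be told apart between PER7, PER38, PER43, PER44, PER47, PER55, PER64, PER66 or PER73 and the counted loci that overlap them.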

How the data were processed

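RNA from root tips was measured in 9 RNA-seq libraries, 1 for each of 9 groups, so a group has no replicate of its own. The deposited values are raw counts for each locus, made by the authors with TopHat2 and HTSeq on TAIR10, per the submitters' processing notes, with versions not given in the sources used here. Libraries did not keep the strand, per the labels' protocols. Each file lists 33602 loci and 5 summary lines, which stayed out of library sizes. Reads with no gene made up 4.24% of the Col-0 library at low phosphate and 0.521% to 1.73% of the others. TAIR10.1 served for gene models, overlaps and sequences.

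Members were numbered by genome order of 73 loci, and 12 of 12 numbers in RefSeq agreed. The members were taken by locus identifier alone, but the family, its role lists, the marker lists and the comparisons were chosen with earlier results of these data known. The genes named were the members with the largest changes of at least 5 CPM, the highest levels, the role lists and the tandem pairs; other members, such as PER58 and PER43, were named after their values were seen. Counts were tested with edgeR 4.0.16 (limma 3.58.1, R 4.3.3): TMM, filterByExpr (minimum count 10, total 15), robust quasi-likelihood fits, Benjamini-Hochberg adjustment over all genes tested and a threshold of 0.05. The phosphate test over 3 genotypes took 6 libraries and blocked on genotype. The other 7 tests used 9 libraries with stop1 and almt1 as replicates of a mutant class, with 2 or 3 residual degrees of freedom. The SE is the log2 fold change divided by the square root of the F statistic. In single-library pairs a gene was apart at 2-fold or more with an exact conditional binomial 95% interval that left out equality, and no p-value was given. DESeq2 1.42.0, DESeq2 size factors, no filter on low counts and leaving out each library were the alternatives. The edgeR fits and the counting intervals were also run on simulated counts. Those for the fits were drawn from the fitted model, so they cannot test whether Col-0 libraries vary as the mutants do. The 9 libraries differed from one another by at least 25.31 times the sampling noise (chi-square per degree of freedom), so none was deposited again under another name.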

Additional observations from a re-analysis of the deposited data

Results flagged for a closer look

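The response to low phosphate of 6 members differed between Col-0 and the mutants by the test of the difference itself, given as Col-0 minus mutants on the log2 scale with an adjusted p under 0.05 (edgeR's quasi-likelihood test). The difference was 6.36 for PER38, 2.74 for PER37, 2.54 for PER10 and 2.5 for PER25, and it was -2.48 for PER27 and -1.46 for PER16. All 6 calls were lost when any 1 of the stop1 or almt1 libraries at high or low phosphate was left out. The adjusted p-values measure no spread between Col-0 samples of a group. The coding sequences of PER37 and PER38 are 93.8% identical, and reads that they share may be split between them or dropped.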

How the results depend on the processing

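No paired analysis was possible because each group holds 1 library, beyond the block on genotype that the test over 3 genotypes already carries. 0 single-member results reversed in sign under any alternative, 231 lost their call and 1576 were counted as the same. Ratios between single libraries were checked for sign only, so the 1576 include results whose call was not rechecked. Counts of members under alternatives, here and above, are given without the share of all genes under the same setting. They show how far calling moved and are no result about the family. With DESeq2, members called were 12 over 3 genotypes, 15 in the mutants, 16 for the response difference and 24 for the mutants against Col-0 at low phosphate. For the response difference, DESeq2 size factors gave 13 and no filter on low counts 12. With the 9 libraries reduced to the 6 without low iron or malate, chosen after seeing the data, 22 passed in the mutants and 30 for the response difference. Leaving out 1 library gave 0 to 22 over 3 genotypes, 0 to 25 in the mutants, 12 to 36 in Col-0, 0 to 30 for the response difference, 1 to 44 with malate and 6 to 21 for the mutants against Col-0 at low phosphate, and 28 to 45 at low iron. At 4-fold in place of 2-fold, members apart were 14 in Col-0, 5 in stop1 and 3 in almt1 for phosphate, 23 at low iron (13 against high phosphate), 12 and 8 with malate in stop1 and almt1, 0 and 0 for stop1 and almt1 against Col-0 at high phosphate, and 14 and 14 at low phosphate. Scaling by total gene counts left 1 member apart between almt1 and Col-0 at high phosphate. At 1 library a group, depth limits members at a few counts: PER1, PER33, PER43 and PER58.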
